A study of Mus musculus with 4 samples.

Results

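The 9 genes described here, Slc1a2, Slc1a3, Aqp4, Glul, Aldoc, Slc4a4, Atp1b2, Gja1 and Slc7a10, are textbook astrocyte genes of glutamate uptake and of transport across the astrocyte membrane. They were chosen by name, and each of the 4 deposited count matrices held 1 row for each of the 9 among its 31053 gene rows. The study compared brain nuclei of 2-month-old female WT mice with those of Csf1r+/- females of the same age, which lack 1 copy of the receptor gene Csf1r in every cell of the body. The strain was C57/BL6 and neither group was treated. For each genotype 2 libraries, 1 mouse each, were analysed; 1 more per genotype was not used here. Nuclei were prepared without detergent from perfused brains, myelin debris was taken out with beads, and transcripts were counted from their 3′ ends as unique molecular identifiers (UMIs), 1 per captured molecule. A level below is given in UMIs of the gene per 1000000 UMIs of the class (CPM), for each library or pooled over the 4 libraries.

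Astrocytes clear the glutamate that neurons release at synapses. The sodium-driven transporters GLT-1, the product of Slc1a2, and GLAST, the product of Slc1a3, take it up, and glutamine synthetase, the product of Glul, turns it into glutamine, which returns to neurons. The other members serve the same cell: aquaporin-4 (Aqp4) passes water at the end-feet on blood vessels, aldolase C (Aldoc) is the brain form of a glycolytic enzyme, NBCe1 (Slc4a4) moves sodium with bicarbonate, the beta 2 subunit (Atp1b2) belongs to the sodium pump, connexin 43 (Gja1) forms gap junctions and Asc-1 (Slc7a10) carries small neutral amino acids such as D-serine.

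On the mm10 build, in the GENCODE M21 annotation (GRCm38), the 2 longest members were Slc4a4 (chr5:88886818-89239653, plus strand, 352.8 kb) and Slc1a2 (chr2:102658659-102790784, plus strand, 132.1 kb). Slc1a3 (chr15:8634124-8710764, minus strand) spanned 76.6 kb. The shortest were Aldoc (chr11:78322968-78327781, plus strand, 4.81 kb), Atp1b2 (chr11:69599736-69605942, minus strand, 6.21 kb) and Glul (chr1:153899944-153909723, plus strand, 9.78 kb). Gja1 (chr10:56377330-56402513, plus strand) spanned 25.2 kb, Slc7a10 (chr7:35186385-35201114, plus strand) 14.7 kb and Aqp4 21.5 kb. Exons of any annotated transcript covered 3.07% of Slc4a4 and 9.94% of Slc1a2, against 67.8% of Aldoc and 65.8% of Atp1b2, so the first 2 are mostly intron and the last 2 mostly exon.

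The promoter windows of the 3 genes that form the glutamate-to-glutamine route are shown because the report turns on where these genes were counted. Each runs 5′ to 3′ on the gene's strand, from 250 bases before to 50 bases after the RefSeq start (GRCm38.p6). Capitals mark TTGGC or its reverse complement GCCAA, the core letters read by the nuclear factor I family, a group of factors used in astrocyte development. The windows are chr2:102706188-102706487 (plus) for Slc1a2, chr15:8710758-8711057 (minus) for Slc1a3 and chr1:153899679-153899978 (plus) for Glul. The Slc1a2 window lies at a start inside the annotated span of the gene given above, and the other 2 at the 5′ edge of theirs.
Slc1a2: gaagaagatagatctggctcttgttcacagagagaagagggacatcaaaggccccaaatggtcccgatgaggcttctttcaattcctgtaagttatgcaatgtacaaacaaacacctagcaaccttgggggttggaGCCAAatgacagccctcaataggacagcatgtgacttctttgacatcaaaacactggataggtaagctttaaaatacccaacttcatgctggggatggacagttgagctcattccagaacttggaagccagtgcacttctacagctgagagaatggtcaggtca
Slc1a3: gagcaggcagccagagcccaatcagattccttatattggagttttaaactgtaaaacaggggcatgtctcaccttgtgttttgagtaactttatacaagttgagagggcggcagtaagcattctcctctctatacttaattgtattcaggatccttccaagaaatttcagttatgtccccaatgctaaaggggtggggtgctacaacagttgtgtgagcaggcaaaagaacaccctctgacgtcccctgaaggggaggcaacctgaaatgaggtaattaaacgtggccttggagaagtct
Glul: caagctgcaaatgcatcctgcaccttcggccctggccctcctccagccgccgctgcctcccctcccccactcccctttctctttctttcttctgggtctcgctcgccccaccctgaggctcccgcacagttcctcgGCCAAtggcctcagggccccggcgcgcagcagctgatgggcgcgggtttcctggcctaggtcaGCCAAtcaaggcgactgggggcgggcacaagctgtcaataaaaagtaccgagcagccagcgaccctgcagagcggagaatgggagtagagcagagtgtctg
The letters occurred once in the Slc1a2 window, 2 times in the Glul window and not in the Slc1a3 window, and in 46.7% of the 32851 windows of that length. The Glul window was richer in G and C (64.3%) than those of Slc1a2 (45.7%) and Slc1a3 (45.3%). Windows were found for 7 of the 9 members.

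The filter asked for 500 to 50000 UMIs, over 200 detected genes and a mitochondrial share below 5% per nucleus, which left 16114 and 15247 in the WT libraries and 9589 and 11182 in the Csf1r+/- libraries, 52132 in all, with 88097109 to 111488169 UMIs per library. Any 2 libraries shared 33 to 68 cell barcodes, at most 0.465% of the smaller one. Csf1r itself in microglia-like nuclei had 843 and 665 CPM (WT libraries) against 564 and 571 CPM (Csf1r+/- libraries). WT replicate 2 stood apart before any comparison: its median mitochondrial share over all deposited nuclei was 0.703% (0.147% to 0.278% in the other 3), 1051 of its nuclei were removed for mitochondrial UMIs (181 to 301 in the others), and it supplied 1185 of the 2259 oligodendrocyte-like nuclei and 115 of the 158 oligodendrocyte precursor-like nuclei. Many genotype values below are given with and without it. Those of astrocyte-like nuclei, where it supplied 26 of the 57 nuclei, are not.

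Astrocyte-like nuclei were few. Clusters were named from marker lists that held none of the 9 genes, and the 9 genes were kept out of the clustering. The one astrocyte-like cluster held 57 nuclei, 0.109% of those kept: 13 and 26 in the WT libraries and 12 and 6 in the Csf1r+/- libraries, with a median of 1685 UMIs. All 20 astrocyte markers had UMIs there, and their summed level was 11977 CPM against 401 CPM in all other nuclei. Gpc5, a glypican, was the marker with the most UMIs (6896 CPM against 206 CPM elsewhere), while Gfap, the astrocyte intermediate filament, had 4 UMIs in 4 of the 57 nuclei. All 6 fibroblast and all 6 ependymal markers were at 0 UMIs in the cluster, as were 10 of 12 endothelial, 8 of 14 microglial and 5 of 7 oligodendrocyte precursor markers. The cluster held only 122239 UMIs. Markers that are rare in all other nuclei, such as Tmem119 (1.15 CPM) and Cdh5 (1.11 CPM), would likely be at 0 in any group so small. Oligodendrocyte markers summed to 1407 CPM and pan-neuronal markers to 3894 CPM there, against 478 and 16976 CPM over all kept nuclei.

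Each of the 9 members was at a higher pooled level in astrocyte-like nuclei than in the sum of all other nuclei. Slc1a2 led at 4155 and 3899 CPM in the WT libraries and 4169 and 6698 CPM in the Csf1r+/- libraries (4731 ± 1318, SD, n = 4). Slc4a4 followed at 2644, 1503, 1980 and 2030 CPM in the same order (2039 ± 468). Slc1a3 stood at 1549, 989, 1470 and 1421 CPM (1357 ± 251). The order of these 3 held in each library, and the lowest Slc1a2 value lay above the highest Slc4a4 value.

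The next member was Glul at 227, 304, 719.9 and 710.4 CPM (490.3 ± 262), from 6, 16, 24 and 7 UMIs. Both Csf1r+/- libraries lay above both WT libraries, as they did for 14.7% of all genes tested in this class. Gja1 stood at 151, 247, 269.9 and 203 CPM, Atp1b2 at 113, 95.1, 299.9 and 203 CPM, and Slc7a10 at 113, 114, 209.96 and 304 CPM. Aldoc (189, 76.1, 149.97 and 203 CPM) and Aqp4 (151, 76.1, 239.95 and 0 CPM) came last. These 5 members rested on 16 to 28 UMIs each over the 4 libraries, and their ranges overlapped, so that no order among them can be read. For Aqp4, the 0 UMIs among the 9853 of Csf1r+/- replicate 2 allow a level of up to 304 CPM (3 UMIs), for counting error only, which is above its level in the other libraries.

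**Figure D1:**
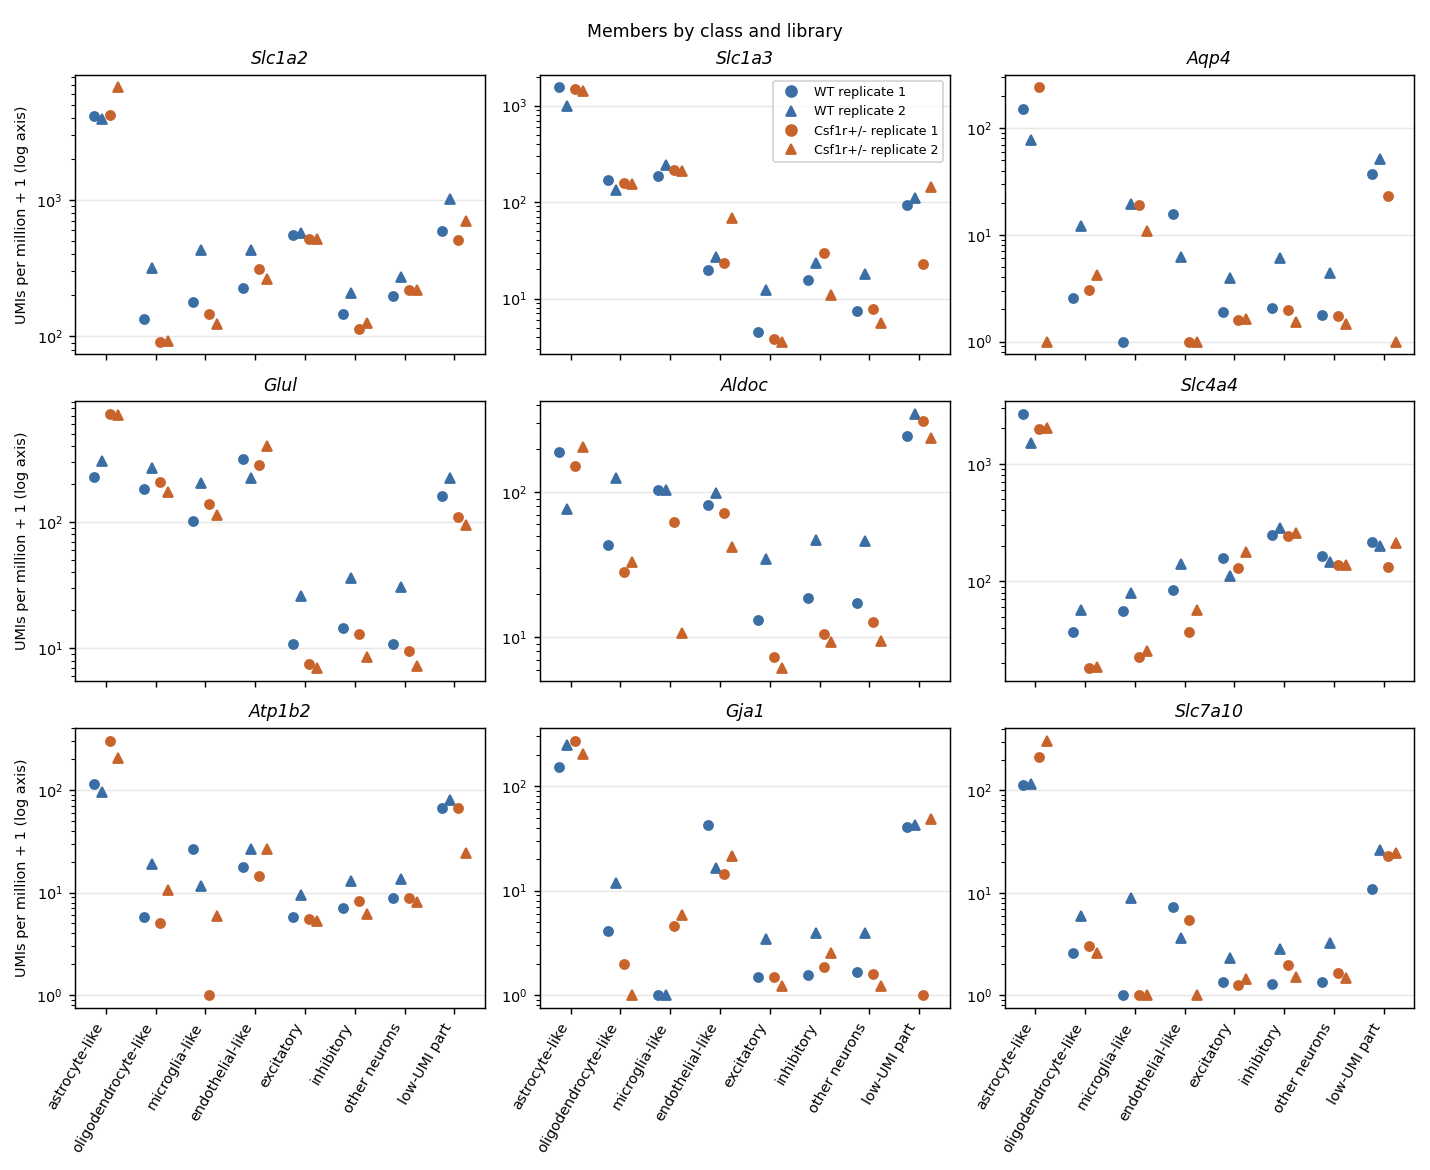
Level of each of the 9 genes in 8 classes of nuclei, in CPM plus 1 on a log axis, with 1 point per library (blue, WT; orange, Csf1r+/-; circle and triangle, replicates 1 and 2). Slc1a2 and Slc4a4 kept pooled levels above 100 CPM in neurons, whereas Aldoc, Glul, Aqp4, Gja1 and Slc7a10 were highest in WT replicate 2 (blue triangle) in all 3 neuron classes.

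Relative to all other nuclei, the enrichment differed widely between members. It was 194-fold for Slc7a10, 178-fold for Gja1, 107-fold for Slc1a3 and 83.8-fold for Aqp4. It was 23.3-fold for Glul and 22.5-fold for Atp1b2. The most abundant members were among the least specific, with 12.4-fold for Slc4a4 and 11.02-fold for Slc1a2, and Aldoc was lowest at 7.01-fold. Clusters were cut from the same nuclei, so these ratios carry no test.

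Because astrocyte-like nuclei were so few, nearly all UMIs of the members in kept nuclei were counted elsewhere. Levels and shares leave out the nuclei that the filter removed. These held 184, 1524, 372 and 139 Aldoc UMIs (WT 1, WT 2, Csf1r+/- 1, Csf1r+/- 2), beside 1789, 3778, 851 and 635 kept. Slc4a4 lost a smaller part, 196, 445, 272 and 76 beside 18582, 12761, 12315 and 15217. Of all UMIs, 738310, 1630307, 1289079 and 484863 were removed, beside at least 88097109 kept per library. Of the 146071 Slc1a2 UMIs, 520 (0.356%) lay in astrocyte-like nuclei and 98724 (67.6%) in excitatory neurons. Of the 58875 Slc4a4 UMIs, 235 (0.399%) lay in astrocyte-like nuclei, 26785 (45.5%) in excitatory, 9516 (16.2%) in inhibitory and 16953 (28.8%) in other neurons. The largest shares in astrocyte-like nuclei were those of Slc7a10 (5.92% of 321 UMIs), Gja1 (5.47% of 512), Slc1a3 (3.35% of 4663) and Aqp4 (2.64% of 605). Glul (0.75%), Atp1b2 (0.726%) and Aldoc (0.227%) had under 1% there. With astrocytes defined instead by marker counts per nucleus (65 nuclei, 42 of them in the cluster; 42 further nuclei had 3 astrocyte markers, 1 short of the limit), the Aldoc share was 0.766% and no other share moved beyond the spread between libraries.

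**Figure D2:**
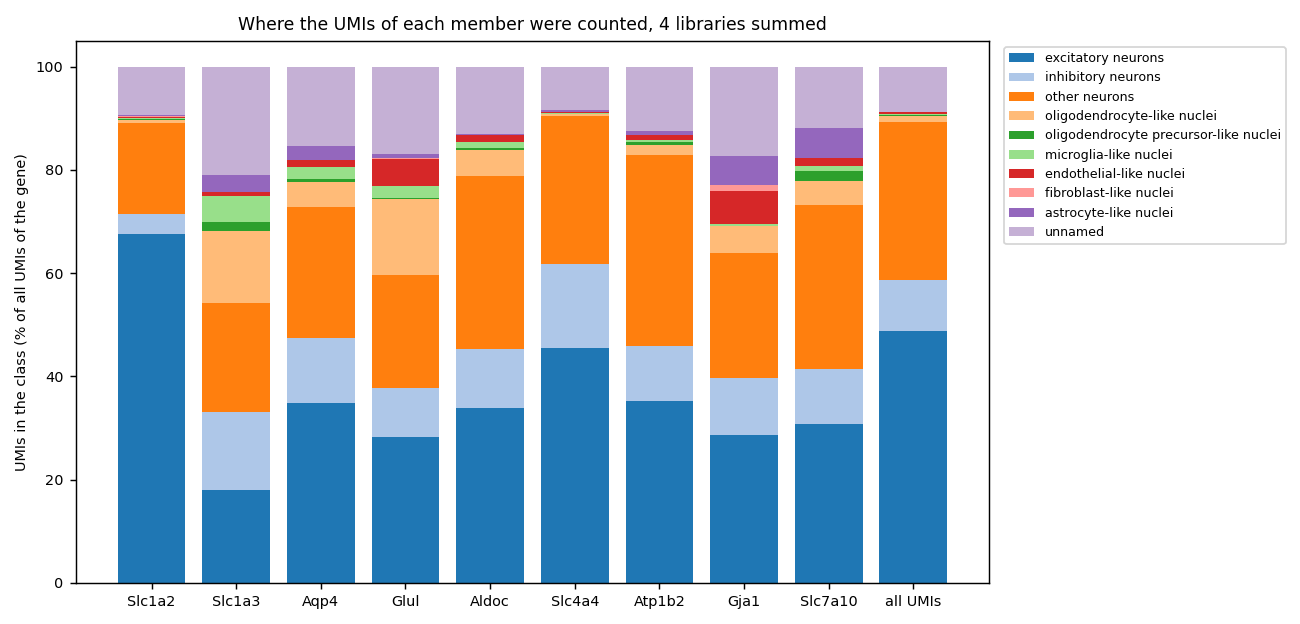
Percent of the UMIs of each gene counted in each class of nuclei, 4 libraries summed, with the same split of all UMIs at the right. Excitatory neurons held 67.6% of the Slc1a2 UMIs against 48.8% of all UMIs, while astrocyte-like nuclei held at most 5.92% of any member.

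Oligodendrocyte-like nuclei held 14.5% of the Glul and 14.1% of the Slc1a3 UMIs with 1.19% of all UMIs. In oligodendrocyte-like nuclei Glul had 181, 268, 208 and 172 CPM (WT 1, WT 2, Csf1r+/- 1, Csf1r+/- 2), and in endothelial-like nuclei 314, 222, 286 and 405 CPM. In excitatory neurons of the same libraries Glul was at 9.87, 25.0, 6.49 and 5.94 CPM. Every oligodendrocyte-like and endothelial-like value of Glul was thus far above the highest value in excitatory neurons, and these levels overlapped those of WT astrocyte-like nuclei.

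Slc1a3 was a gene of several glial classes here. It stood at 167, 132, 158 and 154 CPM in oligodendrocyte-like nuclei (153 ± 14.9, n = 4) and at 183, 242, 213 and 209.8 CPM in microglia-like nuclei (212 ± 23.9), in the order WT 1, WT 2, Csf1r+/- 1, Csf1r+/- 2. In excitatory neurons it was at 3.49, 11.2, 2.84 and 2.58 CPM. WT replicate 2, highest in excitatory neurons, was lowest in oligodendrocyte-like nuclei. Slc1a2 did the opposite in oligodendrocyte-like nuclei, at 134, 316, 90.8 and 92.3 CPM, with WT replicate 2 far above the others.

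In endothelial-like nuclei Gja1 was at 41.6, 15.5, 13.4 and 20.5 CPM, from 20, 6, 3 and 4 UMIs. In the 16 fibroblast-like nuclei it had 6 UMIs, and in oligodendrocyte precursor-like nuclei none among 619424 UMIs. Atp1b2 was highest outside astrocyte-like nuclei in an unnamed group of 146 nuclei led by the mural genes Vtn, Atp13a5 and Rgs5 beside endothelial ones, at 143 CPM from 69 UMIs. Aqp4 and Slc7a10 stayed at or under 12.8 CPM in every other named class when the libraries were pooled.

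Among neurons Slc1a2 varied more by cluster than by library. Over the 27 neuronal clusters with at least 200 nuclei the pooled level ran from 90.9 to 969.6 CPM, a 10.7-fold range, with a median of 233 CPM. It was highest in a cluster of 1182 nuclei led by Ctgf, Svil and Cobll1, at 1032, 935, 926 and 944 CPM in the 4 libraries. A cluster of 4114 nuclei led by Arhgap25, Foxp2 and Syt6 followed at 939, 840.3, 788 and 861 CPM. The layer 5-like cluster of 981 nuclei (Lcp1, Vwc2l, Tshz2) stood at 909, 824, 848 and 803 CPM. All 3 were excitatory, and the 4 libraries lay close together in each.

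Further excitatory clusters took middle places, such as that led by Rorb and Rspo1 (646, 755, 719 and 673 CPM) and that led by Scn7a (492, 618, 631 and 521 CPM). The lowest levels were in an excitatory cluster led by Lama1 and Col18a1 (92.4, 148, 52.5 and 96.9 CPM), in inhibitory neurons led by Sox6, Eya4 and Erbb4 (83.2, 148, 57.4 and 69.4 CPM), in 8065 neurons led by Otx2os1 and Ebf1 (89.4, 172, 71.6 and 72.7 CPM) and in Sst neurons (108, 176, 66.4 and 108 CPM). In these 4 clusters WT replicate 2 was the highest library, which it was not in the 3 clusters at the top. Over all 27 clusters it was the highest for Slc1a2 in 19.

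Slc4a4 took another order. It was highest in the dentate granule-like cluster of 289 nuclei, at 671, 714, 698 and 786 CPM, and in the striatal projection-like cluster of 1015 nuclei (Rarb, Rgs9, Drd2, Penk), at 559.8, 694, 516 and 544 CPM. Neurons led by Cpa6 and Lgr6 (355, 385, 449 and 455 CPM) and the Sox6 and Eya4 inhibitory neurons (364, 345, 365 and 419 CPM) also stood high. The latter were among the lowest for Slc1a2, and the striatal projection-like cluster also lay below the median for Slc1a2. The lowest of the 27 clusters, led by Ebf2 and Ebf3, was at 24.7, 35.2, 10.3 and 6.56 CPM, so that the range was 34.0-fold. WT replicate 2 was the highest library in 3 of the 27 clusters.

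Slc1a3 had a median of 6.17 CPM over the neuronal clusters and stood out in one, the 457 inhibitory neurons led by Pde1c, Lgr5 and Stac, at 164 and 146 CPM in the WT libraries and 243 and 221 CPM in the Csf1r+/- libraries. The next cluster, dentate granule-like, was at 43.5, 54.2, 27.9 and 30.2 CPM. Aqp4 was at 3.13 CPM and Gja1 at 0 UMIs in the Pde1c cluster, while Glul (35.7 CPM), Aldoc (38.8 CPM) and Atp1b2 (21.9 CPM) had their highest level of the 27 clusters there. The Pde1c cluster was also the shallowest of the 27, with a median of 2471 UMIs per nucleus, and the part of depth was not tested. The genotype difference in that one cluster was not tested.

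**Figure D3:**
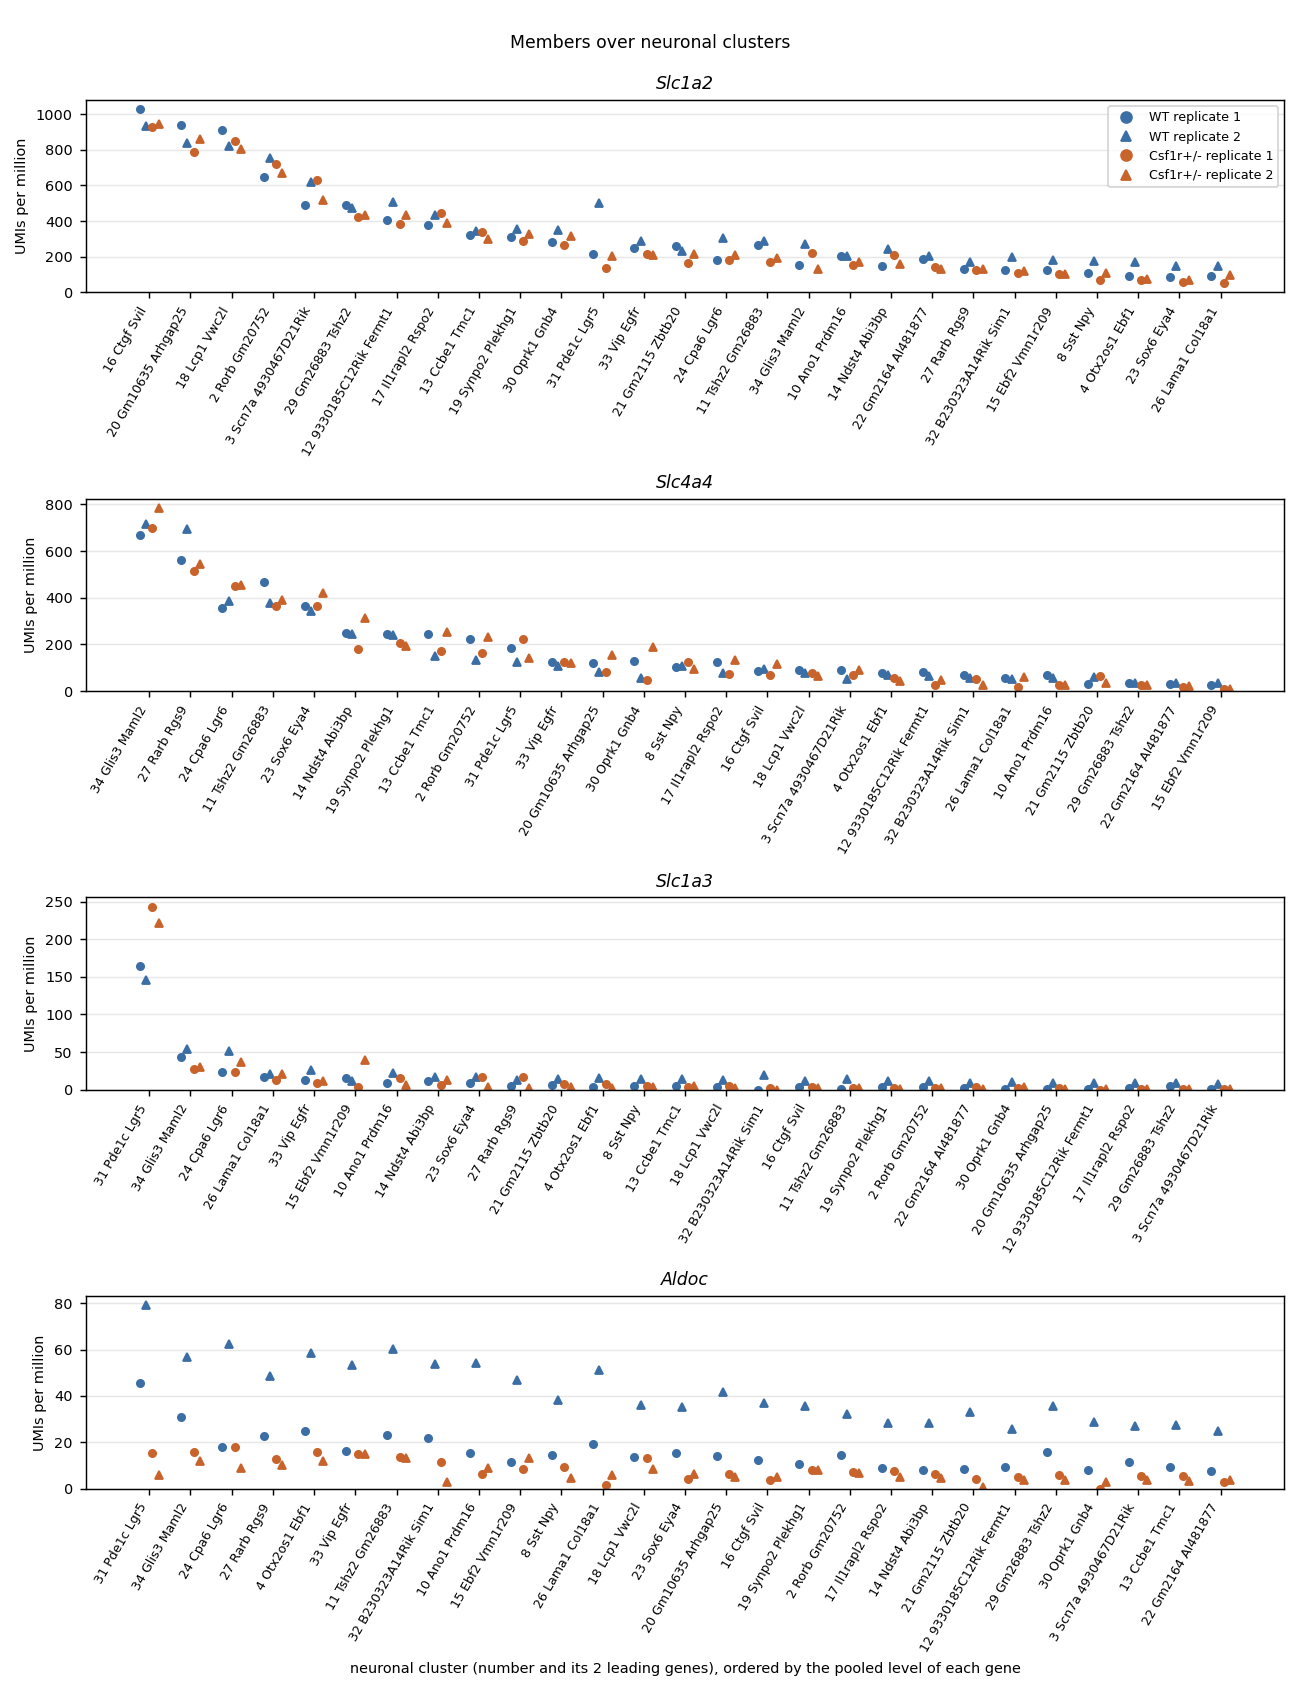
Level (CPM) of Slc1a2, Slc4a4, Slc1a3 and Aldoc over the 27 neuronal clusters with at least 200 nuclei, each named by number and leading genes and ordered by the pooled level, with 1 point per library. Slc1a2 and Slc4a4 fall steeply from cluster to cluster with the 4 libraries close together at the top, whereas Aldoc is low everywhere and is highest in WT replicate 2 (blue triangle) in all 27 clusters.

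The remaining members varied both by cluster and by library in neurons. Between clusters, pooled levels ran over a 14.2-fold range for Atp1b2 (1.54 to 21.9 CPM), 14.1-fold for Aqp4 (0.566 to 7.95 CPM), 6.28-fold for Glul (5.68 to 35.7 CPM) and 4.25-fold for Aldoc (9.13 to 38.8 CPM), beside 79.7-fold for Slc1a3. Aldoc was highest in WT replicate 2 in 27 of 27 clusters. Glul was highest in that library in 26 clusters, Gja1 in 25, Atp1b2 in 24, Slc1a3 and Aqp4 in 23 and Slc7a10 in 20. Pooled neuronal levels of Aqp4, Gja1 and Slc7a10 were at most 2.05 CPM in each of the 3 neuron classes.

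The share of nuclei with at least 1 UMI was compared after every nucleus was thinned to 1000 UMIs, since excitatory neurons had a median of 6869 UMIs and astrocyte-like nuclei 1685. After thinning, Slc1a2 was found in 91.3% of astrocyte-like nuclei (46 of 57 were deep enough) and in 39.7% of excitatory, 13.3% of inhibitory and 18.7% of oligodendrocyte-like nuclei. Without thinning these shares were 94.7%, 86.6%, 40.7% and 29.0%. By cluster, the thinned Slc1a2 share ran from 8.04% in Sox6 and Eya4 neurons to 57.4% in layer 5-like neurons. Slc4a4 was found in 76.1% of astrocyte-like nuclei, in 13.4% of excitatory and in 46.5% of dentate granule-like nuclei. Aldoc was found in 15.2% of astrocyte-like nuclei but also in 9.95% of endothelial-like, 9.04% of oligodendrocyte-like and 1.82% of excitatory nuclei, and Gja1, Aqp4 and Slc7a10 in at most 0.14% of excitatory neurons.

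The makeup of the 9-gene sum differed between classes within every library. Slc1a2 made up 43.9% to 56.9% of it in astrocyte-like nuclei and 72.4% to 77.7% in excitatory neurons, depending on the library, while Slc4a4 led in inhibitory neurons (46.0% to 61.8%). In oligodendrocyte-like nuclei Glul held 28.5% to 40.7%, Slc1a3 14.0% to 32.0% and Slc1a2 17.8% to 33.6%. The 9 genes were thus not in 1 ratio across the classes of a library.

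A group of 744 nuclei with a median of 664.5 UMIs was left unnamed. It was led by Dbi, Mt1, Apoe, Aldoc, Fth1 and Mt3, and 361 and 291 of its nuclei came from the WT libraries against 42 and 50 from the Csf1r+/- libraries. Pan-neuronal markers summed to 13413 CPM in it, the 20 astrocyte markers to 669 CPM and the 4 choroid plexus markers to 3574 CPM. Aldoc stood at 244, 345, 308 and 235 CPM there, above its level in astrocyte-like nuclei, whereas Slc1a2 was at 597, 1014, 505 and 706 CPM and Slc1a3 at 92.3, 108, 22.0 and 141 CPM. Astrocyte-like nuclei held 13.2 times as much Slc1a3, 9.49 times as much Slc4a4, 8.93 times as much Slc7a10 and 5.62 times as much Slc1a2 as this group, but 2.45 times as much Glul, 2.40 times as much Atp1b2 and 0.457 times as much Aldoc. The 3 lowest ratios belonged to the 3 shortest genes. A second unnamed group, 56 nuclei led by Apoe, Fth1 and Aldoc, held still more Aldoc (510.02 CPM from 130 UMIs) beside 1954 CPM of Slc1a2. In this group 16 of the 20 astrocyte markers were enriched (18 in the astrocyte-like cluster), beside 9 oligodendrocyte and 5 inhibitory neuron markers. It counted as outside astrocyte-like nuclei in the ratios and shares above, with 1.84% of the Aldoc UMIs.

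**Figure D4:**
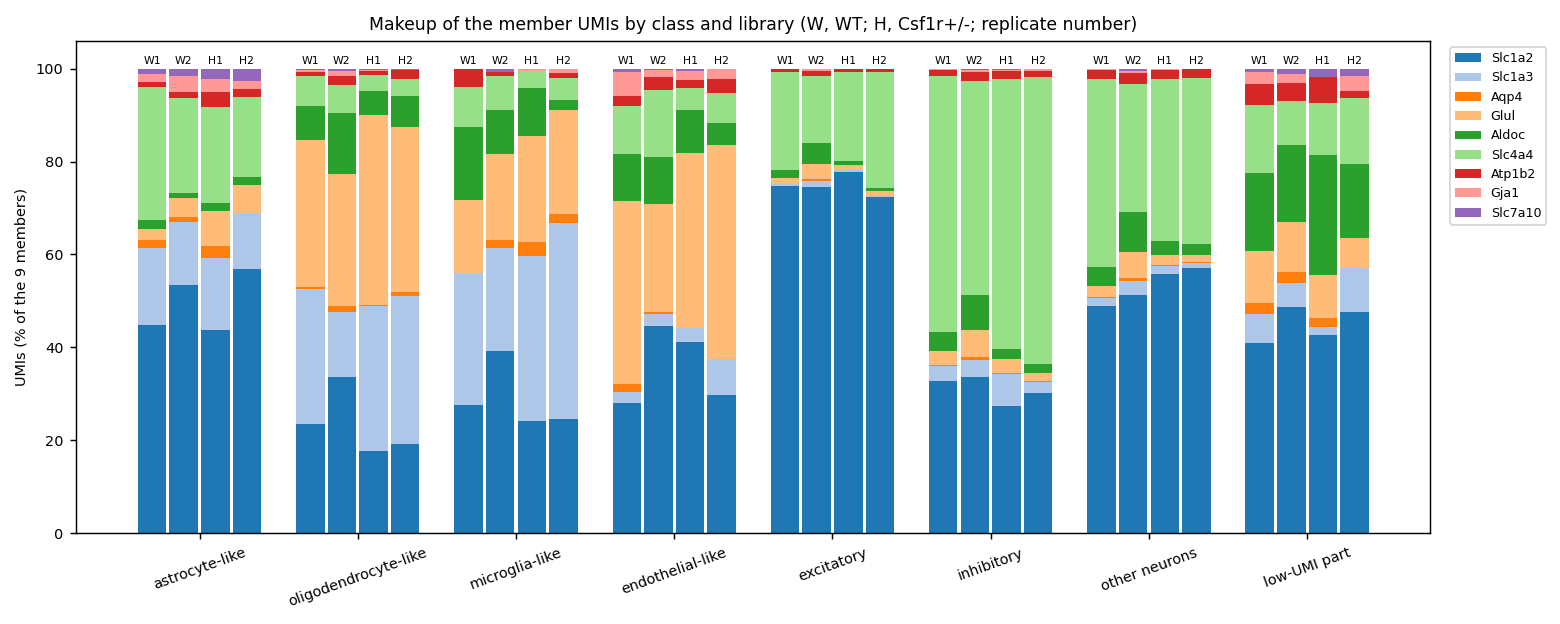
Percent of the UMIs of the 9 genes that each gene contributed, by class and library (W1 and W2, WT; H1 and H2, Csf1r+/-). Slc1a2 (dark blue) leads in excitatory neurons, Slc4a4 (light green) in inhibitory neurons, Glul (light orange) and Slc1a3 (light blue) rise in oligodendrocyte-like and microglia-like nuclei, and Aldoc (dark green) is largest in the low-UMI group.

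Csf1r+/- nuclei were compared with WT nuclei on counts summed per library within each class, with edgeR's quasi-likelihood test adjusted over all genes tested. No member passed an adjusted p of 0.05 in any of the 7 comparisons, and few other genes did. The study's own threshold, an unadjusted p under 0.01, is given beside it. Fewer cells of a type and less RNA per cell cannot be told apart in the sum over all nuclei.

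Over all kept nuclei, 0 of 9 members were called at an adjusted p of 0.05 (0% of the 21670 genes tested were, and 544 genes had an unadjusted p under 0.05). At an unadjusted p under 0.01 there was 1, Aldoc, against 0.245% of all genes. Aldoc stood at 16.05 and 42.9 CPM in the WT libraries and at 9.65 and 7.11 CPM in the Csf1r+/- libraries (log2 fold change -1.71, SE 0.39, edgeR adjusted p = 0.999). Both Csf1r+/- libraries thus lay below both WT libraries, as they did for 13.8% of all genes tested, and WT replicate 2 lay far above all others. Without WT replicate 2 the Aldoc value was -0.93, and without WT replicate 1 it was -2.21. Slc1a2 and Slc4a4, counted mostly in neurons, were near 0 (0.030, SE 0.12, and 0.050, SE 0.16). The other 6 members had values between -1.52 (Gja1) and -0.51 (Atp1b2), and in each of these 6 WT replicate 2 was the highest library. Without that library Gja1 was at -0.55, Aqp4 at -0.42, Glul at -0.34 and Atp1b2 at -0.16, while Slc1a3 (0.040) and Slc7a10 (0.28) turned above 0.

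In excitatory neurons 0 of 9 members passed the adjusted threshold (0% of 19258 genes, of which 586 had an unadjusted p under 0.05) and 2 passed the unadjusted one (0.535% of all genes), Aldoc and Glul. Aldoc was at 12.2, 33.9, 6.29 and 5.12 CPM (log2 fold change -1.92, SE 0.40, edgeR adjusted p = 0.9997). Glul was at 9.87, 25.0, 6.49 and 5.94 CPM (-1.39, SE 0.36, the same adjusted p). In both genes the Csf1r+/- libraries lay close together below both WT libraries. Both lay below both WT libraries for 14.4% of all genes tested in this class. Without WT replicate 2 the values of Aldoc and Glul were -1.11 and -0.68. Slc1a2 was at 554, 569.6, 519 and 513 CPM (-0.057, SE 0.13), the most even of the 9. Atp1b2 was at -0.49, and at -0.11 without WT replicate 2.

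In inhibitory neurons 0 of 9 members passed the adjusted threshold (0% of 16092 genes, of which 504 had an unadjusted p under 0.05) and 3 passed the unadjusted one (0.584% of all genes). Aldoc was at 17.5, 45.7, 9.54 and 8.27 CPM (log2 fold change -1.79, SE 0.35), Glul at 13.5, 35.5, 11.98 and 7.50 CPM (-1.29, SE 0.38) and Slc1a2 at 145, 206, 113 and 125 CPM (-0.54, SE 0.14). Their edgeR adjusted p was 0.9999. WT replicate 2 was again the highest in all 3, and without it the values were -1.0002, -0.49 and -0.31. Slc4a4, more abundant than Slc1a2 in these neurons, was at 245, 282, 240.4 and 257 CPM (-0.069, SE 0.11).

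Beside these neuronal values, the metallothionein genes Mt1 and Mt2, which are also abundant in astrocytes, had log2 fold changes of -2.01 (SE 0.48) and -2.71 (SE 0.71) in excitatory neurons, with Mt1 at 12.4, 39.5, 7.34 and 5.51 CPM after scaling. Of the 16 abundant astrocyte transcripts on the list used here, 15 had a value below 0 in excitatory neurons, with a median of -1.32 against 0.0023 over all genes tested. Of all genes tested, 49.5% lay below 0. The list was chosen with earlier results of these data known. It holds Mt1, Mt3 and Apoe, which the study reports as lowered in neurons, so a low median was partly built in. The study also names Aldoc, a member, among the transcripts commonly lowered in neurons. Its mice include those used here, so the lower Aldoc values above are not an independent result. Mt1 was at -0.96 and Mt2 at -1.13 without WT replicate 2, and 12 of the 16 lay below 0 with a median of -0.52. The 16 summed to 893, 1318, 1205 and 861 CPM there, and 8089 CPM in microglia-like nuclei, which use several of them. Their part in the members' values was not tested.

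In oligodendrocyte-like nuclei 8 of 9 members could be tested, and 0 passed the adjusted threshold, against 0.00922% of 10849 genes (929 genes had an unadjusted p under 0.05). At the unadjusted threshold there were 4, Slc1a2, Aldoc, Slc4a4 and Gja1, against 3.35% of all genes. Slc1a2 had a log2 fold change of -1.26 (SE 0.28, edgeR adjusted p = 0.0931). Aldoc, at 42.6, 124, 27.2 and 31.8 CPM, had -1.53 (SE 0.37, adjusted p = 0.106). Slc4a4, at 36.3, 56.0, 17.1 and 17.5 CPM, had -1.38 (SE 0.35, adjusted p = 0.119). Gja1 had 2 and 24 UMIs in WT and 1 and 0 in Csf1r+/- libraries (adjusted p = 0.243). Slc1a3 (0.17, SE 0.21) and Glul (-0.17, SE 0.21), which with Slc1a2 were the members with the most UMIs in this class, were near 0.

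The oligodendrocyte-like class was made up differently by library: 1168 of the 1185 nuclei of WT replicate 2 fell into one of its clusters, which held 1190 nuclei in all. Without that library the values were -0.53 for Slc1a2, -0.53 for Aldoc and -1.04 for Slc4a4. Library and cluster cannot be told apart there.

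In microglia-like nuclei 5 members could be tested, 0 passed the adjusted threshold (0% of 7637 genes, of which 856 had an unadjusted p under 0.05) and 3 passed the unadjusted one, against 4.56% of all genes. Slc1a2 was at 179, 426, 145 and 122 CPM (log2 fold change -1.25, SE 0.34, edgeR adjusted p = 0.109), Aldoc at 102.2, 102.4, 61.4 and 9.76 CPM (-1.44, SE 0.49, adjusted p = 0.20) and Slc4a4 at 55.4, 78.8, 21.7 and 24.4 CPM (-1.60, SE 0.51, adjusted p = 0.158). The 2 WT libraries had nearly the same Aldoc level here. Without WT replicate 2 the values were -0.46, -1.43 and -1.31. Slc1a3, at 183, 242, 213 and 209.8 CPM, did not differ beyond its spread (-0.062, SE 0.27).

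In endothelial-like nuclei 7 members could be tested, 0 passed the adjusted threshold (0.115% of 8714 genes) and 1 passed the unadjusted one (2.12% of all genes). This was Slc4a4, at 83.2, 139.7, 35.7 and 56.4 CPM (log2 fold change -1.31, SE 0.44, edgeR adjusted p = 0.451), with -0.87 without WT replicate 2 and -1.69 without WT replicate 1. Glul, the most abundant member with Slc1a2, was at 314, 222, 286 and 405 CPM (0.33, SE 0.34), and the genotypes overlapped. Removing nuclei with high doublet scores raised the pooled Glul level in this class from 295 to 421 CPM and the Aldoc level from 78.5 to 111 CPM.

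In astrocyte-like nuclei 6 members had enough counts to be tested, and all 6 values lay above 0, from 0.014 (Slc4a4) to 1.42 (Glul). None of them passed the adjusted threshold (0% of 1030 genes, of which 46 had an unadjusted p under 0.05) or the unadjusted one (0.68%). Glul, from 6 and 16 UMIs in WT and 24 and 7 in Csf1r+/- libraries, came nearest (SE 0.49, edgeR adjusted p = 0.962). Slc1a2 had 0.45 (SE 0.35), Slc1a3 0.26 (SE 0.40), Gja1 0.30 (SE 0.62) and Atp1b2 1.41 (SE 0.73). For Slc1a2 the value was 0.86 without Csf1r+/- replicate 1 and 0.11 without Csf1r+/- replicate 2.

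**Figure D5:**
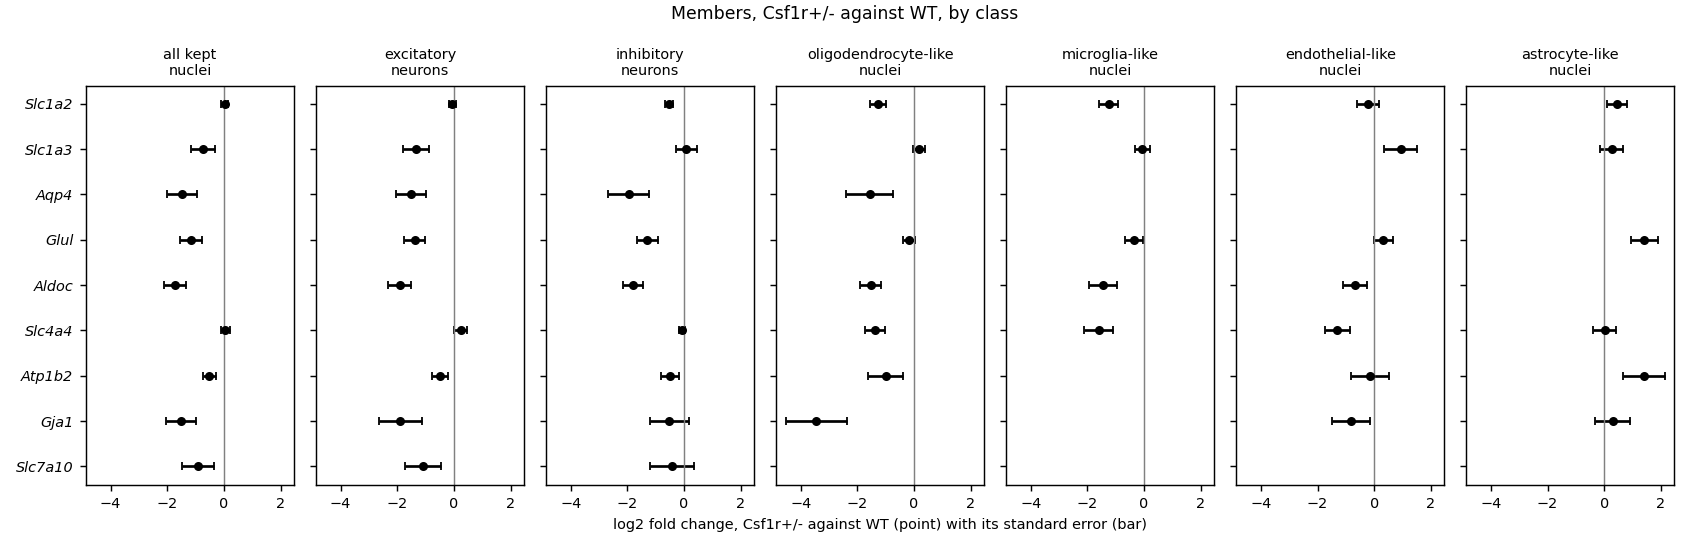
Log2 fold change of each gene, Csf1r+/- against WT (points), in 7 groups of nuclei. Bars are standard errors, worked out from the log2 fold change and the F statistic of the edgeR test. Genes with too few counts for a test have no point. Aldoc lies left of 0 wherever it was tested, Slc1a2 and Slc4a4 lie near 0 in all nuclei but left of 0 in oligodendrocyte-like and microglia-like nuclei, and all points of astrocyte-like nuclei lie at or right of 0.

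The contrast was also read over 64 other genes of glutamate, ion, water and fuel transport, from 8 groups. They have 65 rows, since 1 gene of glycolysis and lactate has 2, and the counts and medians below are over rows. No gene of them passed the adjusted threshold in any comparison. At the unadjusted threshold none of those tested passed in all kept nuclei, inhibitory neurons or astrocyte-like nuclei, 2 of 62 tested were lower in excitatory neurons (0.535% of all genes passed, in either direction), 5 of 50 in oligodendrocyte-like nuclei (3.35% of all genes), 1 of 35 in microglia-like nuclei (4.56%) and 1 of 45 in endothelial-like nuclei (2.12%), and none was higher. Among the 2 lower in excitatory neurons was the carbonic anhydrase Car2 (log2 fold change -1.19, SE 0.28, and -0.87 without WT replicate 2).

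Over all kept nuclei the median value of the 64 rows tested was -0.093, against 0.0013 over all genes tested and -0.92 over the 9 members. By group it was -0.74 for the 4 connexin genes tested, -0.48 for the 5 further astrocyte carriers, -0.29 for the 3 GABA and glycine uptake genes, -0.11 for glycolysis and lactate, -0.073 for the 7 bicarbonate and pH genes, -0.055 for the 9 potassium, water and volume genes, -0.039 for the 13 glutamate and glutamine genes and 0.098 for the 7 sodium pump genes. The median of the whole list was 0.021 without WT replicate 2, that of the connexins 0.25 and that of the further carriers -0.054. In oligodendrocyte-like nuclei the glycolytic genes Tpi1 (-1.66, SE 0.50) and Ldhb (-0.98, SE 0.31) had the smallest p of the 64, and the group of glycolysis and lactate genes had a median of -0.54. That median was -0.010 without WT replicate 2, with Tpi1 at -1.32 and Ldhb at -0.83.

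Genes with the most similar levels over 8 classes and 4 libraries (32 points that share libraries, log2 of CPM + 1, among 16464 genes) differed from member to member. Slc1a2 was nearest to Fgfr3 (r = 0.88), Hif3a (0.87) and Sox9 (0.86), and Slc7a10 to Ednrb (0.91). Slc4a4 was nearest to Trpm3 (0.95), Rgs20 (0.91) and Farp1 (0.91). Slc1a3 was nearest to Il18 (0.94), a gene of microglia among other cells, and Aldoc to the metallothionein genes Mt3 (0.94) and Mt1 (0.89). Atp1b2 was nearest to the GABA transporter Slc6a11 (0.86), Gja1 to Aox1 (0.90) and Sox9 (0.89), Aqp4 to Itih3 (0.76) and Glul to Tmem33 (0.86). These are descriptions over points that are not independent.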

How the data were processed

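The deposited values were whole-number UMI counts per gene and nucleus, made by the authors with Cell Ranger 5.0.0 per the file headers; the labels name build mm10. No normalization was applied to these counts before deposit. The 9 members and all gene lists were chosen with earlier results of these data known. Nuclei were filtered as the study did, clustered with scanpy 1.11.5 (3000 variable genes without the members, scaled per library, 30 principal components, Leiden resolution 1), and clusters led by glial or vascular markers were divided again. A glial name needed at least 3 markers found in 10% of nuclei at 2 times the level elsewhere and 1 marker among the 10 leading genes. Clusters with over 50% high Scrublet scores stayed unnamed; doublets elsewhere were kept. Neuronal clusters led by a marker of another class counted as other neurons (10.5% to 12.4% of nuclei by library). Unnamed nuclei made up 6.98%, 10.3%, 5.70% and 4.84% by library. Levels rest on 122239 UMIs in astrocyte-like nuclei and 183832956 in excitatory neurons.

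For the genotype comparison, counts of a class were added up within each library and tested with edgeR 4.0.16 under R 4.3.3 (TMM, quasi-likelihood, two-sided, at least 20 counts, Benjamini-Hochberg over all genes); the p-values measure the spread between 2 mice per genotype. Each SE is the absolute log2 fold change divided by the square root of the F statistic of the quasi-likelihood test. The test was also run on simulated libraries with 1 common spread and no outlying library, so that check does not bear on the effect of WT replicate 2. Alternatives were the likelihood-ratio test, DESeq2 1.42.0, other scalings, filters, clusterings and left-out libraries. Named were all members, the 3 listed genes with the smallest p per comparison and the most similar genes. Some genes that this rule names are not reported here. No libraries were duplicates (chi-square per degree of freedom 34.8 to 93.2 between pairs).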

Additional observations from a re-analysis of the deposited data

Results flagged for a closer look

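In 3 of the 6 members tested in astrocyte-like nuclei, both Csf1r+/- libraries lay above both WT libraries there and below both in another class. Among all genes tested in astrocyte-like nuclei, 14.7% had both Csf1r+/- libraries above both WT libraries. Both lay below both WT libraries for 14.4% of genes in excitatory and 14.2% in inhibitory neurons. In oligodendrocyte-like and microglia-like nuclei this was 19.4% and 20.9%. The share of genes with both patterns was not counted. The difference between the classes was not tested. For Slc1a2 the log2 fold change was 0.45 in astrocyte-like nuclei against -0.54 in inhibitory neurons, -1.26 in oligodendrocyte-like nuclei and -1.25 in microglia-like nuclei. The astrocyte-like value was 0.86 without Csf1r+/- replicate 1 and 0.11 without Csf1r+/- replicate 2, and the nearest WT and Csf1r+/- libraries there were at 4155 and 4169 CPM. Without WT replicate 2 the other 3 values were -0.31, -0.53 and -0.46. For Glul it was 1.42 against -1.39 in excitatory and -1.29 in inhibitory neurons, which were -0.68 and -0.49 without WT replicate 2. For Atp1b2 it was 1.41 against -0.49 in excitatory neurons, which was -0.11 without WT replicate 2. The astrocyte-like value rested on 3 and 5 UMIs in WT and 10 and 2 in Csf1r+/- libraries. In excitatory neurons the nearest WT and Csf1r+/- libraries were at 4.86 and 4.73 CPM after scaling.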

How the results depend on the processing

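No member passed an adjusted p of 0.05 in the reported fits, and this held for each of the 7 comparisons with RLE size factors, library totals alone, the 10% detection filter, at least 1000 UMIs per nucleus and doublets removed, for 6 at resolution 0.5, and for astrocytes by marker counts. It did not hold everywhere else. The share of all genes called under each of the other settings is not given here. The counts of members that follow therefore have no background to be read against. The likelihood-ratio test called 1 member in excitatory neurons (Aldoc), 1 in inhibitory neurons (Aldoc) and 3 in oligodendrocyte-like nuclei, and DESeq2 called 2 in excitatory neurons (Aldoc and Glul). With no filter on low counts, 1, 1, 3 and 1 members were called in excitatory, inhibitory, oligodendrocyte-like and microglia-like nuclei. Leaving out 1 library gave 0 to 4 called members over all kept nuclei, 0 to 3 in excitatory neurons, 0 to 4 in inhibitory neurons and in oligodendrocyte-like nuclei and 0 to 1 in microglia-like and endothelial-like nuclei, the lone library of a genotype being assumed to vary like the others; the highest counts came without WT replicate 1. The replicate numbers do not pair the mice by any label, and deviations of same-numbered libraries correlated at -0.034 to 0.093 over the 7 comparisons; with the replicate block, 1 member was called in inhibitory neurons, 3 in oligodendrocyte-like and 2 in microglia-like nuclei, and Slc1a3 in inhibitory neurons turned to -0.026.

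Some signs turned. With library totals alone Slc1a2 was -0.035 and Slc4a4 -0.0067 over all kept nuclei. In astrocyte-like nuclei Slc4a4 was -0.017 with library totals, -0.016 with at least 1000 UMIs, -0.091 with the 10% filter, -0.16 without doublets and -0.36 with no filter, where Slc1a2 was -0.017, Slc1a3 -0.11 and Gja1 -0.055. Atp1b2 in endothelial-like nuclei was 0.14 with at least 1000 UMIs. Leaving out 1 library turned the sign within these ranges: over all kept nuclei Slc1a3 -1.25 to 0.040, Slc4a4 -0.10 to 0.24 and Slc7a10 -1.57 to 0.28; in excitatory neurons Slc4a4 -0.050 to 0.59 and Slc7a10 -1.78 to 0.038; in inhibitory neurons Slc1a3 -0.89 to 0.65, Atp1b2 -0.88 to 0.022 and Gja1 -1.22 to 1.03. In oligodendrocyte-like nuclei the ranges were -0.077 to 0.35 for Slc1a3 and -0.37 to 0.095 for Glul, in microglia-like nuclei -0.23 to 0.16 and -0.71 to 0.25, in endothelial-like nuclei -0.66 to 0.35 for Slc1a2 and -0.64 to 0.23 for Atp1b2, and in astrocyte-like nuclei -0.30 to 0.46 for Slc4a4. The cause was not tested.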
